A study of Mus musculus with 6 samples.

Results

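Cytosolic ribosomal proteins are the protein part of the ribosomes that translate nuclear mRNAs in the cytoplasm. They were followed here in whole tibialis anterior muscle of control mice and of mice with the MLC-SOCS-3 transgene. The members are genes named as ribosomal proteins of the small (Rps) or large (Rpl) subunit by the only symbol of a probe set, together with Rpsa, Rplp0, Rplp1, Rplp2 and Fau. S6 kinases and symbols of pseudogenes were left out, and the probe set with the highest mean over the 6 arrays stood for each gene. This gave 64 of the 19938 genes measured: 22 small subunit genes, 33 large subunit genes and 9 others. The others are the paralogs or gene copies Rpl3l, Rps27l, Rpl39l, Rpl10l, Rpl7l1, Rps4l, Rpl32l and Rps23rg1, and Rps19bp1, which encodes a partner of RPS19 and no ribosomal protein.

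The study has 6 samples, 1 Affymetrix array each. The 3 control samples came from C57Bl6J mice and the 3 others from mice labelled MLC-SOCS-3/C57Bl6J, all 11 weeks old and starved for 6 h before the muscle was frozen. SOCS-3 is an intracellular inhibitor of cytokine and insulin receptor signalling. The labels do not say what drives the transgene, how many lines were used, or whether replicates are separate animals, so the p-values cover only the scatter of these 6 arrays, and that scatter may be technical. The comparison asks how transcript levels in the muscle differ with the transgene. Values are log2 RMA intensities, so a difference of 1 is a 2-fold change of intensity. The folds of very bright probe sets can be compressed, which was not measured here.

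The arrays had medians between 5.98 and 6.04. All 12 muscle fibre markers lay above the median probe set (5.99), with list means of 13.89 to 13.96 on the control arrays and 13.87 to 13.92 on the arrays labelled MLC-SOCS-3. Socs3 itself was not higher on the labelled arrays. The brighter of its 2 probe sets read 7.37, 7.41 and 7.43 on the controls and 7.07, 7.12 and 7.25 on the others, a difference of -0.26 (limma, unadjusted p = 0.011, adjusted p = 0.80). The other probe set gave -0.22 (limma, unadjusted p = 0.030, adjusted p = 0.82), and in both every labelled array lay below every control. Where its probes lie relative to the transgene is not given in the sources used here, so every direction below is for the arrays as labelled. Because whole muscle was used, fewer cells of a type and less RNA per cell cannot be told apart.

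Ribosomal protein mRNAs are among the most abundant in most cells, and their products are made in matched amounts. Most of these mRNAs belong to the TOP class: they start with a short run of pyrimidines (C or T in the DNA), through which mTOR and the RNA-binding protein LARP1 control their translation. The control therefore acts largely on translation, which an array of total RNA does not measure. In muscle, the paralog RPL3L takes the place of RPL3 in part of the ribosomes.

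The start sites of 52 of the 64 genes were found in RefSeq's promoter windows (GRCm38.p6, 250 bases before and 50 after the annotated start). The genes without an entry were Rpl21, Rpl23a, Rpl29, Rpl30, Rpl36, Rpl7, Rpl8, Rplp1, Rps14, Rps20, Rps29 and Rps4l. The windows below show 30 bases, 10 before the annotated start and 20 from it on, 5′ to 3′ on the gene's strand. Capitals mark a run of at least 8 pyrimidines that reaches within 30 bases of the start. Rps6, Fau, Rplp2 and Rps18 are shown because the run covers the start, and Rplp0, Rpl3l and Rpl10l because they hold none there and are described further on.
Rps6: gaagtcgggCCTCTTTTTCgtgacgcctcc
Fau: gcccccaCTTCTTCCTCTTTCTTgactcca
Rplp2: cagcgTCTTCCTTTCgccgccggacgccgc
Rps18: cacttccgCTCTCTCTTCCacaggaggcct
Rplp0: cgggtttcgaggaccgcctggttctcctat
Rpl3l: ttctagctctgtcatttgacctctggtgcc
Rpl10l: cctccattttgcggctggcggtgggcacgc

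These windows lie at chr4:86857348-86857377 on the minus strand (Rps6), chr19:6057937-6057966 on the plus strand (Fau), chr7:141447641-141447670 on the plus strand (Rplp2) and chr17:33955646-33955675 on the minus strand (Rps18). Rplp0 lies at chr5:115559457-115559486 (plus), Rpl3l at chr17:24727816-24727845 (plus, the first of its 2 entries) and Rpl10l at chr12:66284382-66284411 (minus). Each window spans the annotated start, so it covers the end of the promoter and the first bases of the transcript.

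A pyrimidine run of this kind was found in 29 of the 44 small and large subunit genes with an entry (65.9%), against 30.5% of the 27025 genes in the whole promoter table. It was found in 4 of the 8 others with an entry. On either strand of the 300 bases, GGAAGT, the core of ETS family sites, occurred in 52.3% of the 44 genes and in 26.5% of all genes. GCCATNTT, a form of the YY1 motif, occurred in 20.5% against 6.96%, and GGGCGG, the GC box, in 61.4% against 38.2%. TATAAA was found in 11.4% and in 15.7%. A gene with several entries counted when any of them held the run or motif, and the number of entries per gene was not matched between sets. Each motif was searched on its own, so matches may overlap. RefSeq starts can be off by some bases, and a match describes the letters only.

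The ribosomal protein genes were measured well above most of the array. Of the 64, 62 had a mean above the median probe set and 56 lay above 7.89, the 75th percentile of all probe sets. The 2 below the median were Rpl39l, at 3.60 ± 0.04 in controls and 3.51 ± 0.04 on the labelled arrays (SD, n = 3), and Rps23rg1, at 5.70 ± 0.18 and 5.85 ± 0.06. Probes differ in brightness, so these levels do not order the genes by abundance.

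No ribosomal protein gene passed the test for a difference between the arrays labelled MLC-SOCS-3 and the controls. Limma called 0 members and 0% of the 19938 genes at an adjusted p under 0.05. At an unadjusted p under 0.05 it gave 1 lower member, the paralog Rpl10l, and 0 higher, where the shares over all genes were 3.5% lower and 1.36% higher. The smallest adjusted p of a member was 0.80.

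The differences were small, and most lay just below 0. Of the 64 genes, 50 had a lower mean on the labelled arrays and 14 a higher one, with a median difference of -0.032. Over all genes 56.2% were below 0, with a median of -0.016. Among the 609 genes as bright as the median member or brighter, which include the brighter members, 46.8% were below 0, with a median of 0.0054. Without control replicate 2, 56.2% of these bright genes were below 0, with a median of -0.0067. The members then had 73.4% below 0 and a median of -0.033. With each array centred on its own median, the members split into 41 lower and 23 higher. Their median was then -0.013, that of all genes 0.0035 and that of the bright genes 0.025. With quantile normalization the members stayed at 50 lower and 14 higher. The medians of members, all genes and bright genes were then -0.037, -0.016 and 0.0023.

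**Figure D1:**
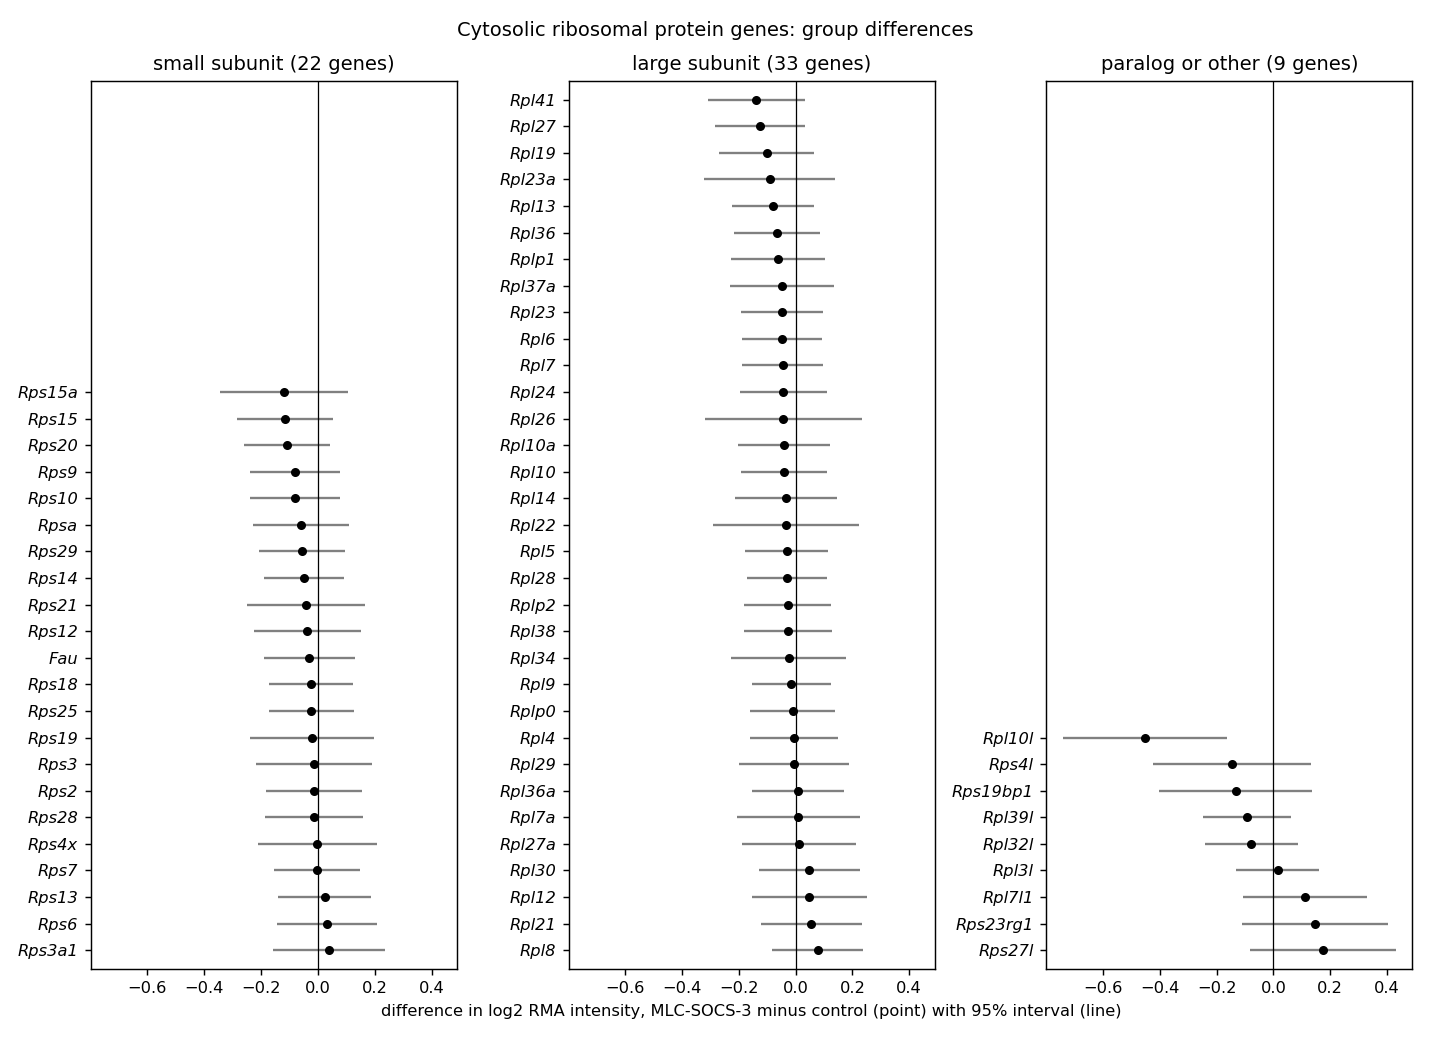
Difference in log2 RMA intensity between the arrays labelled MLC-SOCS-3 and the controls for each of the 64 genes, by subunit (points, 3 arrays per group), with the 95% interval from limma (lines). All intervals but that of Rpl10l include 0, and 50 of the 64 points lie below it.

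Each gene's interval rests on limma's moderated variance, which draws the gene's own scatter toward a value shared by all probe sets. For Rpl9, with group SDs of 0.0093 (control) and 0.012 (labelled arrays), the SE was 0.057. Each interval reflects only the scatter of these arrays, which may be technical. It may therefore not bound a difference between control and transgenic mice. The intervals carry no adjustment for the number of genes. For 50 of the 64 genes the 95% interval lay within a 1.2-fold change in either direction, and for 63 within a 1.5-fold change. The exception was Rpl10l. Over all genes, 32.8% had an interval within 1.2-fold, and among the 609 bright genes 78.3% did. Any compression of bright probe sets would apply to these intervals as well.

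**Figure D2:**
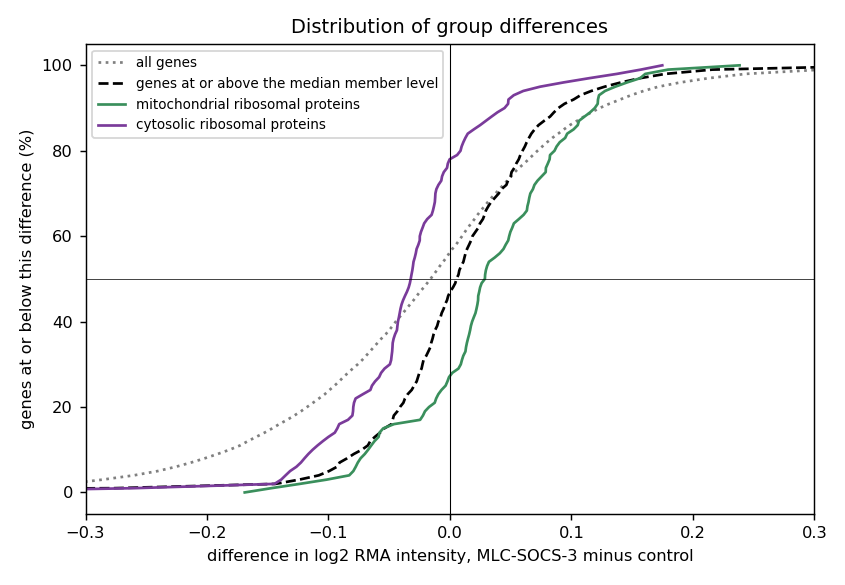
Cumulative share of genes (%) by difference in log2 RMA intensity, MLC-SOCS-3 minus control, for the 64 cytosolic and the 77 mitochondrial ribosomal protein genes, the 609 genes at least as bright as the median member, and all 19938 genes. The curves cross 50% at -0.032, 0.029, 0.0054 and -0.016, and the axis is limited to 0.3 on either side.

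Of the 22 small subunit genes, 19 had a difference below 0 and 3 above, with a median of -0.028. Rps15a had the lowest difference, at -0.12 ± 0.09 (SE), followed by Rps15, at -0.11 ± 0.07, and Rps20, at -0.11 ± 0.06. The 3 above 0 were Rps3a1 (0.038 ± 0.08), Rps6 (0.031 ± 0.07) and Rps13 (0.023 ± 0.07). None passed the test in the main limma fit, adjusted or unadjusted.

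Rps6 encodes the ribosomal protein that S6 kinases phosphorylate downstream of mTOR. It read 12.44, 12.38 and 12.35 on control replicates 1 to 3 and 12.40, 12.51 and 12.35 on replicates 1 to 3 of the labelled arrays. The groups overlapped, with labelled replicate 2 the highest. The difference was 0.031, with a 95% interval of -0.15 to 0.21.

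Rpsa, the laminin receptor precursor that also sits on the small subunit, read 11.20, 11.31 and 11.31 on the controls and 11.17, 11.28 and 11.19 on the labelled arrays. These groups overlapped too, and the difference was -0.058 ± 0.07 (SE). Rps19, the gene most often mutated in Diamond-Blackfan anaemia, read 8.54, 8.32 and 8.26 on the controls and 8.37, 8.35 and 8.33 on the labelled arrays. Control replicate 1 stood above the other 5 arrays, and the difference was -0.021 ± 0.09. The 8 measured genes of that disease had differences from -0.12 (Rpl27) to -0.0016 (Rps7), with a median of -0.037.

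Fau encodes RPS30 fused to a ubiquitin-like protein. It read 10.62, 10.64 and 10.61 on the controls and 10.65, 10.62 and 10.51 on the labelled arrays. Only labelled replicate 3 lay below every control. Rps4x, whose gene lies on the X chromosome, read 10.64, 10.74 and 10.86 on the controls and 10.80, 10.78 and 10.65 on the labelled arrays. Its difference of -0.0019 ± 0.09 (SE) was smaller than the spread within either group.

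Of the 33 large subunit genes, 26 had a difference below 0 and 7 above, with a median of -0.033. Rpl41 had the lowest, at -0.14 ± 0.07 (SE), followed by Rpl27 at -0.12 ± 0.06 and Rpl19 at -0.10 ± 0.07. Rpl8 had the highest, at 0.077 ± 0.07, followed by Rpl21 at 0.055 ± 0.07. None of the 33 passed the test in the main limma fit, adjusted or unadjusted.

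The P stalk recruits the GTPases of elongation to the large subunit, and its base is RPLP0. Rplp0, also a common reference gene for PCR, read 13.15, 13.07 and 13.08 on the controls and 13.09, 13.07 and 13.11 on the labelled arrays. Its difference was -0.011, with an interval of -0.16 to 0.14, and the groups overlapped. Rplp1 read 12.71, 12.71 and 12.68 against 12.72, 12.62 and 12.57, so labelled replicate 1 was the highest array and the other 2 labelled arrays the lowest. Rplp2 read 6.77, 6.70 and 6.69 against 6.67, 6.74 and 6.68. Rpl12, at the stalk base, had means of 6.08 on the controls and 6.13 on the labelled arrays, a difference of 0.048 ± 0.08 (SE). The levels of Rplp2 and Rpl12 lie between the median probe set (5.99) and the 75th percentile (7.89), far below those of Rplp0 and Rplp1.

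RPL5 carries the 5S ribosomal RNA into the large subunit, and, when free, binds MDM2, the inhibitor of p53. Rpl5 read 11.68, 11.70 and 11.73 on the controls and 11.67, 11.71 and 11.64 on the labelled arrays, a difference of -0.032 ± 0.06 (SE). Rpl23, whose product also binds MDM2, differed by -0.048 ± 0.06. Of 11 measured p53 targets and regulators, 0 passed the test, adjusted or unadjusted, with 6 above 0 and 5 below. The median was 0.0083, but -0.0011 with quantile normalization and below 0 without control replicate 2 (-0.013), labelled replicate 2 (-0.00048) or labelled replicate 3 (-0.0042).

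Among the proteins that line or surround the tunnel through which the new chain leaves the ribosome, Rpl4, Rpl19, Rpl22, Rpl23a and Rpl26 were measured. All 5 differences were below 0, from -0.10 (Rpl19) to -0.0071 (Rpl4). Rpl22 read 9.67, 9.61 and 9.92 on the controls and 9.80, 9.71 and 9.60 on the labelled arrays. Control replicate 3 was the highest and the groups overlapped, with a difference of -0.033 ± 0.11 (SE).

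**Figure D3:**
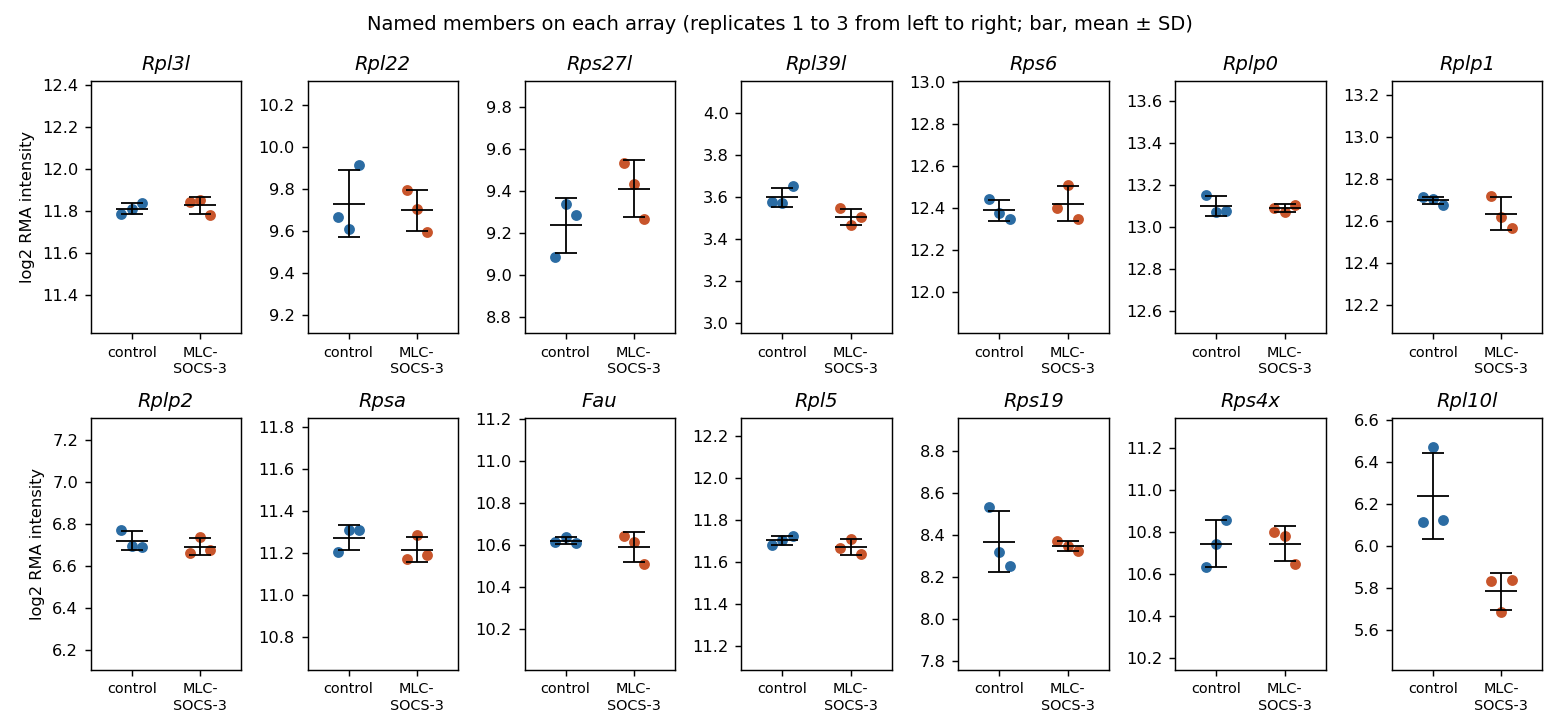
Log2 RMA intensity of 14 members on each array (points; replicates 1 to 3 from left to right within a group), with the mean and SD of each group (bars, n = 3). Each panel spans 1.2 log2 units around its own mean. Only Rpl39l and Rpl10l show groups that do not overlap.

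Rpl3l, the muscle paralog of Rpl3, was measured by 1 probe set, at 11.78, 11.81 and 11.83 on the controls and 11.84, 11.85 and 11.78 on the labelled arrays. The groups covered nearly the same range. The difference was 0.015 ± 0.06 (SE), with an interval of -0.13 to 0.16. Rpl3 had no probe set of its own in the annotation, so the balance of the pair was not analysed here. The neighbour of Rpl3l on chromosome 17, Rps2, a protein of the mRNA entry channel, differed by -0.012 ± 0.07.

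Rpl10l is a retrogene of the X-linked Rpl10 that is known for its work in male germ cells. It read 6.11, 6.47 and 6.12 on the controls and 5.83, 5.68 and 5.83 on the labelled arrays. All 3 labelled arrays lay below all controls, with control replicate 2 well above the other 2 controls. The difference was -0.45 ± 0.12 (SE), a 1.37-fold lower intensity (limma, unadjusted p = 0.0086, adjusted p = 0.80). The level lies close to the median probe set. Without control replicate 2 the difference was -0.33. Rpl10 itself differed by -0.039 ± 0.06.

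Rps27l, a paralog of Rps27 and a known p53 target, had the highest difference of all members. It read 9.09, 9.34 and 9.28 on the controls and 9.54, 9.43 and 9.27 on the labelled arrays. Labelled replicate 3 lay below 2 of the controls, so the groups overlapped, and the difference of 0.17 ± 0.10 (SE) did not pass the test. It was 0.10 without control replicate 1 and 0.11 without labelled replicate 1. Rpl39l, a paralog of Rpl39 best known from testis, read 3.58, 3.57 and 3.65 against 3.55, 3.47 and 3.50, far down the range of the array. Its groups did not overlap, with a difference of -0.093 ± 0.06.

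None of the remaining copies and partners passed the test, adjusted or unadjusted. Rpl7l1 differed by 0.11 ± 0.09 (SE), with labelled replicate 3 at 9.19 and the other 5 arrays between 8.91 and 8.99. Rps23rg1, a retrogene of Rps23, differed by 0.15 ± 0.10, and Rps4l, listed by RefSeq as a transcribed pseudogene, by -0.15 ± 0.11. Rps19bp1 differed by -0.13 ± 0.11 and Rpl32l by -0.077 ± 0.07. The median SE of the 9 genes was 0.10, against 0.067 for the 55 subunit genes.

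In 9 of the 64 genes every labelled array lay below every control, and in 0 genes above. Over all genes the shares were 7.76% lower and 4.52% higher, and over the 609 bright genes 6.9% and 7.55%. The 9 were Rpl6, Rpl10l, Rpl13, Rpl27, Rpl39l, Rps9, Rps10, Rps14 and Rps20, named after their values were seen. Rpl27 read 10.46, 10.57 and 10.57 on the controls and 10.40, 10.42 and 10.41 on the labelled arrays. Rpl13 read 11.43, 11.44 and 11.45 against 11.37, 11.39 and 11.32. Apart from Rpl10l, none of the 9 had an unadjusted p under 0.05 in the main limma fit, with values between 0.10 (Rpl27) and 0.44 (Rpl6). Rpl27 differed by -0.12 ± 0.06 (SE) and Rpl6 by -0.047 ± 0.06. These p-values depend on the moderation, as described further on.

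The members' level varied between arrays of the same group, most of all between labelled replicates 2 and 3. On labelled replicate 3 they lay below their own 6-array means by a median of -0.053, and 26 of the 64 genes had their lowest value there. On labelled replicate 2 the median was 0.016, and 52 of the 64 genes read higher there than on replicate 3, by a median of 0.090. Between control replicates 1 and 2 the median gap was 0.024, with 42 genes higher on replicate 2. Control replicate 2 held the highest value of 22 genes.

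Over wider sets of genes these shares were lower, and the difference in shares was not tested. Labelled replicate 3 was lowest for 40.6% of the members, but for 16.3% of the 609 bright genes and 17.9% of all genes. Control replicate 2 was highest for 34.4% of the members, 9.69% of the bright genes and 15.5% of all genes. The same array was lowest for 32.3% of the bright genes, with a median deviation of -0.026, and for 4.69% of the members. Without labelled replicate 3 the members' median difference was -0.014, with 41 genes below 0, and that of all genes was -0.016. Without labelled replicate 2 it was -0.052, with 54 genes below 0.

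**Figure D4:**
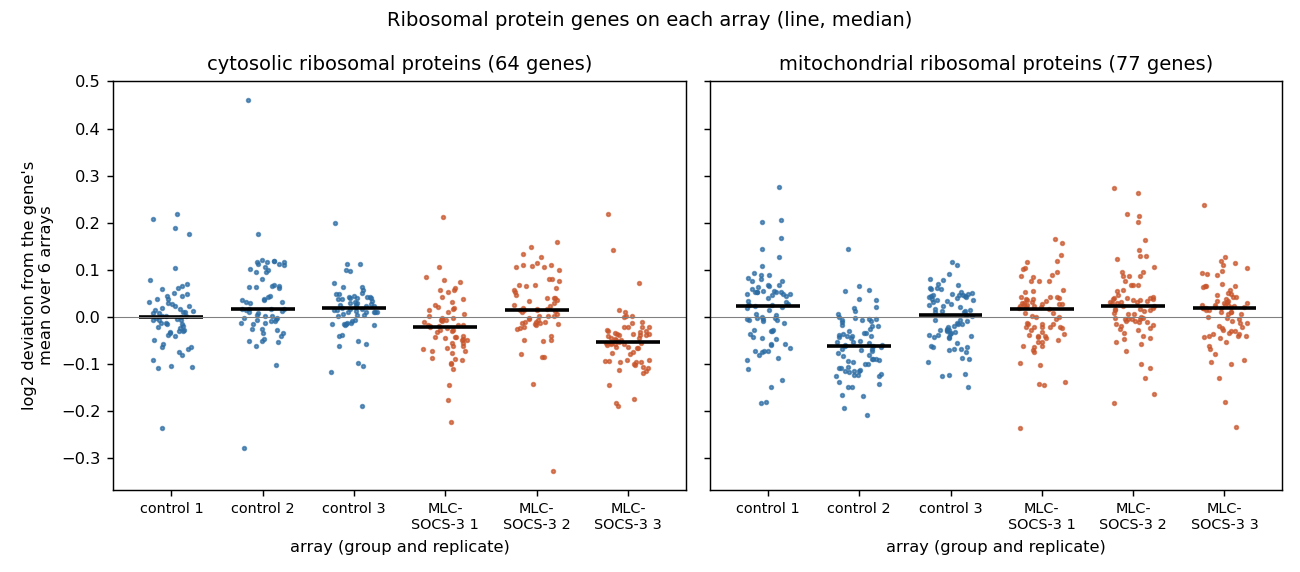
Log2 deviation of each gene from its own mean over the 6 arrays, by array, for the 64 cytosolic (left) and 77 mitochondrial (right) ribosomal protein genes (points; black lines, medians). The cytosolic set is lowest on replicate 3 of MLC-SOCS-3 (median -0.053) and the mitochondrial set on control replicate 2 (median -0.062).

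Ribosomal protein genes have many processed copies in the genome, and the probe sets reflect this. The 64 genes had 221 single-symbol probe sets, which held 209 distinct sets of values, and 40 genes had more than 1. The probe sets of a gene can share sequence with each other and with unlisted pseudogenes, so they are not independent, and copies that are nearly identical cannot be told apart.

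Within a gene, the spread between the lowest and the highest difference of its probe sets had a median of 0.035 over the 40 genes, about the size of the members' median difference. In 28 of the 40 genes all differences had 1 sign, 25 of them below 0 and 3 above (Rpl36a, Rpl7a and Rps13). The 14 probe sets of Rps12 ran from -0.071 to -0.016, and the 9 of Rpl36 from -0.086 to -0.058. The 3 of Rpl41 had identical values.

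The widest spread was in Rps9, whose brighter probe set gave -0.081 and the other 0.14. For Rps6 the probe set with the highest mean was the only 1 of 8 above 0, and the lowest of the 8 gave -0.033. Rpl21 had 2 of 9 probe sets above 0, among them the brightest, at 0.055. Rpl23 had probe sets 3.85 log2 units apart in level, with differences of -0.048 and 0.015.

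**Figure D5:**
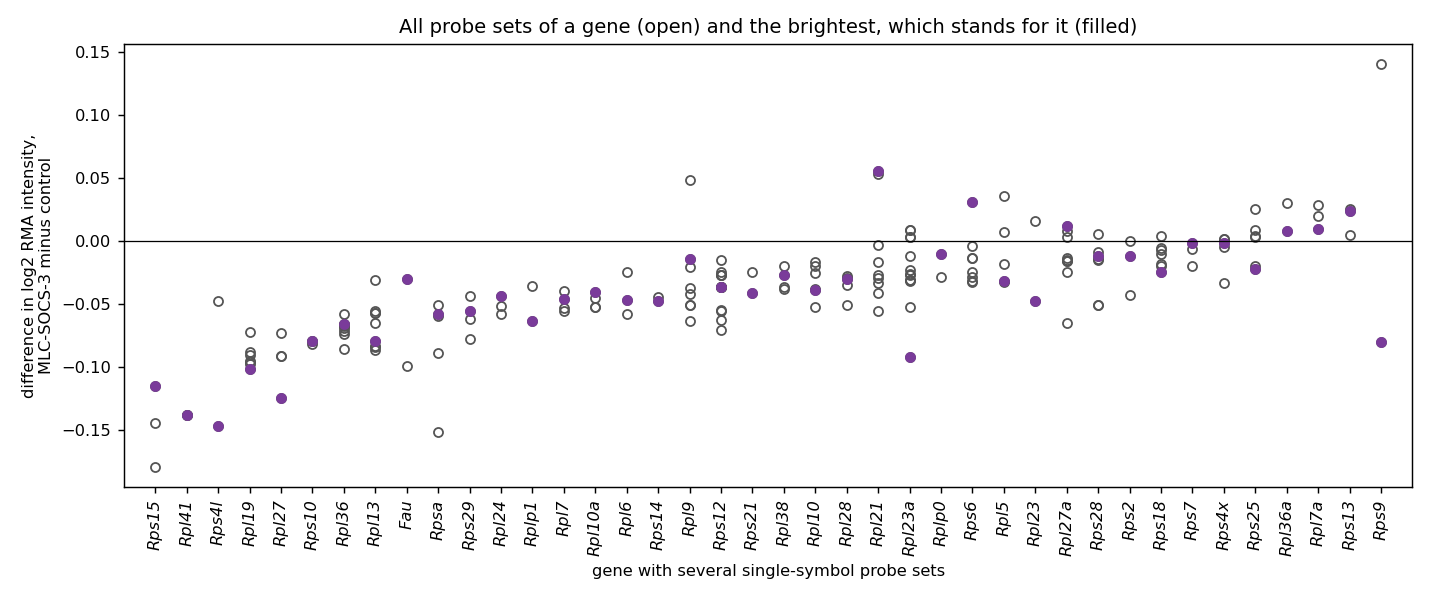
Difference in log2 RMA intensity, MLC-SOCS-3 minus control, of every single-symbol probe set (circles) of the 40 genes that have several; the filled circle is the brightest, which stands for the gene. Genes are ordered by their median difference, and the largest spread, 0.22, is that of Rps9.

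A further 239 probe sets are listed with several symbols, at least 1 of which would meet the rule. They cannot be given to 1 gene. Their median difference was -0.014, with 160 below 0 and 79 above. Another 20 gene symbols occur only there and were not analysed as genes, among them Rpl3, Rpl11, Rpl13a, Rpl22l1, Rpl39, Rps24 and Rps27.

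Several members are common reference genes for PCR, for which the spread over all 6 arrays matters. The SD over the 6 arrays was 0.032 for Rplp0 and Rps18, 0.039 for Rpl4, 0.045 for Rps29 and 0.050 for Rps13. It was 0.077 for Rpl19 and 0.081 for Rpl27. The median over the 64 members was 0.063, against 0.058 for the 609 bright genes and 0.12 for all genes. Rpl9 had the narrowest range, with 0.035 between its lowest and highest array, and Rpl10l the widest, with 0.79.

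The mitochondrial ribosome, made of a separate set of nuclear-encoded proteins, lay on the other side of 0. Of its 77 genes 55 had a higher mean on the labelled arrays and 22 a lower one, with a median of 0.029, and 0 passed limma's test. At an unadjusted p under 0.05 there was 1, Mrpl47, at 0.24 ± 0.10 (SE), where the shares over all genes were 1.36% higher and 3.5% lower. Without control replicate 2 the median was 0.0071, with 43 genes above 0, and without control replicate 1 it was 0.047. It was 0.048 with each array centred and 0.017 with quantile normalization. Whether the 2 ribosomes differ from each other was not tested.

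Genes that build ribosomes also gave no call. Of 75 measured genes of ribosome assembly and ribosomal RNA processing, 0 passed the adjusted test, with 52 above 0 and 23 below and a median of 0.049. Without adjustment, 6 of the 75 had a p under 0.05, every one higher on the labelled arrays, where the shares over all genes were 1.36% higher and 3.5% lower. Those with the smallest p were Utp20, a factor of small subunit processing, at 0.52 ± 0.08 (SE), the box C/D snoRNP protein Nop58 at 0.20 ± 0.07 and Nol11 at 0.18 ± 0.06. The list's median ranged from 0.031 to 0.056 when any 1 array was left out. For the 25 measured genes of RNA polymerases I and III and their factors the median was 0.020, with 16 above 0 and 0 called, adjusted or unadjusted. It ranged from 0.0079 to 0.035 with 1 array left out, the lowest without labelled replicate 3, and was 0.0054 with quantile normalization, with 13 genes above 0. With each array centred it was 0.040, with 20 above 0. Among them Polr3d was at -0.16 ± 0.08, Twistnb at 0.14 ± 0.08 and Polr3e at 0.13 ± 0.08.

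Other genes of the TOP class, such as elongation factors, had a median of -0.0091, with 8 of 18 above 0 and 0 called. With each array centred, 14 of the 18 lay above 0, with a median of 0.010. Leaving out any 1 array but control replicate 1 also gave a median above 0, up to 0.0059. The median was -0.0041 without control replicate 1. With quantile normalization it was -0.016, with 11 of the 18 below 0. Nap1l1, a histone chaperone, was at 0.33 ± 0.09 (SE) and the initiation factor subunit Eif3e at 0.17 ± 0.08. Nap1l1 was the only 1 at an unadjusted p under 0.05, where 1.36% of all genes were higher and 3.5% lower. The nucleolar protein gene Npm1 was at 0.12 ± 0.09. Of 28 further translation factors 22 lay above 0, with a median of 0.036 and 0 called, adjusted or unadjusted. With each array centred, 26 lay above 0, with a median of 0.055, and with quantile normalization 19, with a median of 0.025. The initiation factor 2 subunits Eif2s3x and Eif2s2 were at 0.11 ± 0.07 and 0.12 ± 0.08, and Eif3m at 0.11 ± 0.08.

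Genes of mTOR, S6 kinase, LARP1 and MYC control had a median of 0.030, with 22 of 30 above 0 and 0 called, adjusted or unadjusted. The median was 0.015 without control replicate 3, 0.014 with quantile normalization and 0.049 with each array centred. Akt1s1, which encodes an inhibitor of mTOR complex 1, was at -0.081 ± 0.06 (SE). Eef2k, the kinase that halts elongation, was at -0.11 ± 0.09, and Rptor, the scaffold of mTOR complex 1, at 0.082 ± 0.07. In the p53 list Trp53inp1 was at 0.26 ± 0.18, Zmat3 at -0.081 ± 0.06 and Perp at 0.17 ± 0.14.

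Markers of other cells in muscle varied between arrays, and their part in the ribosomal protein values was not tested. The 11 measured macrophage markers had list means of 6.73 to 7.11 on the controls and 6.91 to 7.24 on the labelled arrays, the highest on labelled replicate 3. For 7 fibroblast markers the ranges were 10.09 to 10.16 and 10.12 to 10.47, and for 8 endothelial markers 8.65 to 8.76 and 8.60 to 8.67. The 6 adipocyte markers ranged from 6.41 to 6.51 and from 6.64 to 6.81, and the 6 tendon markers from 7.89 to 8.09 and from 7.80 to 7.84. The 8 lymphocyte markers lay between 4.64 and 4.74 on the controls and between 4.51 and 4.59 on the labelled arrays. The 5 Schwann cell markers lay between 6.83 and 6.86 and between 6.70 and 6.82. For 4 satellite cell markers the ranges were 6.83 to 6.98 and 6.82 to 6.88, and for 2 blood genes 6.26 to 6.40 and 6.24 to 6.34. None of these markers passed the adjusted test. At an unadjusted p under 0.05, 2 were higher (1 macrophage and 1 adipocyte marker) and 4 lower (2 lymphocyte and 2 tendon markers). Over all genes the shares were 1.36% higher and 3.5% lower, and these small counts are not read as changes in cell types.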

How the data were processed

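The deposited table holds 1 log2 intensity per probe set and array, computed by the authors: the submitters' processing notes name RMA and Affymetrix Expression Console, with no version or genome build stated in any source read. RMA corrects background, brings arrays to a common distribution and summarises probes. Neither detection calls nor counts come with it, and the number of arrays limits precision. RNA input was 300 ng, per the labels. At most 36 values were identical between any 2 arrays.

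All 35557 probe sets were fitted with limma 3.58.1 in R 4.3.3 (lmFit, eBayes, two-sided, no block), as deposited, with Benjamini-Hochberg adjustment over all of them and a threshold of 0.05. Of these, 21789 have 1 symbol in the platform annotation, 1621 several, and 12147 are unlisted. The members and lists were chosen with earlier results of these data known. Values on every array were given for a fixed set of members (those measured of Rpl3, Rpl3l, Rpl22, Rpl22l1, Rps27, Rps27l, Rpl39, Rpl39l, Rps6, Rplp0, Rplp1, Rplp2, Rpsa, Rps27a, Fau, Rpl5, Rpl11, Rps19, Rpl13a and Rps4x) and for up to 8 members per direction with an unadjusted p under 0.05. From each list up to 3 genes with the smallest p were named. Other members named are the extremes of a group, members of a role list, or chosen after their values were seen. The fit was tested on simulated data. Alternatives covered scaling, moderation, filters, the choice of probe set, a replicate block and leaving out each array.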

Additional observations from a re-analysis of the deposited data

How the results depend on the processing

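The count of called members was 0 under every alternative in which calls were counted, which leaves out the mean over all probe sets of a gene and the several-symbol probe sets. The median difference of the members stayed below 0, from -0.052 to -0.013, and moved from its main value by less than the SD of the members' array means within groups (0.028). Over all probe sets limma called 0, except 0 to 1 with 1 array left out (1 without control replicate 2), and 11, none of them a member, when only listed probe sets were fitted and the moderation was robust and followed a trend in the mean (a setting added after seeing the data). That setting gave 6 members at an unadjusted p under 0.05 (Rpl10l, Rpl19, Rpl27, Rpl41, Rps15 and Rps20). The trend and robust moderation over all probe sets gave 4. The shares over all genes under these settings are not given here, so these counts are not read as a result about the members. With 1 array left out the members' median ranged from -0.052 to -0.014. The median was -0.032 for the probe set with the lowest mean, -0.032 without the paralogs and Rps19bp1, and -0.030 for the mean over all probe sets of a gene; the last was also added after seeing the data, as were the -0.014 of several-symbol probe sets and the -0.032 of the 55 subunit genes alone. The difference of Rpl10l ranged from -0.51 to -0.33 (adjusted p between 0.57 and 0.98). Rpl3l and Rps27l stayed above 0 under every alternative run, with Rpl3l down to 0.0017. Both have 1 single-symbol probe set, so only scaling and leaving out an array could change their differences. Fau, Rpl5, Rpl22, Rplp0, Rps4x, Rps6 and Rps19 changed sign under at least 1 alternative. Same-numbered replicates did not deviate together (correlations from -0.043 to -0.018), and with the replicate number as a block limma called 0 probe sets and the members' median was -0.032.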

Other observations

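Promoter windows of the 69 mitochondrial ribosomal protein genes in the RefSeq table were read in the same way. The YY1-type motif GCCATNTT occurred in 30.4% of them, above the 20.5% of the cytosolic subunit genes, while a pyrimidine run near the start occurred in 33.3%, close to the 30.5% of all genes. These are shares of letters in the windows, with no test.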
